A study of Homo sapiens with 3 samples.

Results

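High-scoring SOX4 summits were taken from 3 chromatin immunoprecipitation sequencing (ChIP-seq) libraries of BT549, a human cell line from a triple-negative breast cancer. They are the summits on chromosomes 1 to 22 and X that were chosen by their deposited score, which is a p or q value on a −log10 scale and had to be at least 15 in their own library. The rule kept 313 of 7131 summits on these chromosomes (4.39%), out of 7511 in all. It kept 123 of 1256 in replicate 1 (9.79%, 95% exact binomial interval 8.21 to 11.6%), 105 of 1579 in replicate 2 (6.65%, 5.47 to 7.99%) and 85 of 4296 in replicate 3 (1.98%, 1.58 to 2.44%). The 3 libraries form 1 group of cells at passage 5, titled "UT", an abbreviation that the labels do not spell out. They were precipitated with an Abcam antibody to SOX4 and read as 36-bp pairs. The labels do not say whether they came from separate cultures, so the spread between them may be technical. Neither an input nor an IgG library was analysed here, the sequencing depth is unknown, and every interval covers counting error only.

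SOX4 is a transcription factor of the SOX family, which binds the minor groove of DNA through a high-mobility-group box and prefers sequences close to AACAAAG or AACAATG. Pericentromeric and subtelomeric DNA is rich in repeats that occur in many near-identical copies, and short reads from one copy can be placed on another. The same is true of nuclear copies of mitochondrial genes and of the multicopy genes for small nuclear RNAs. Repeat annotation was not used here.

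The 313 summits joined into 194 sites when summits within 200 bp of each other were merged. By position, 72 sites were pericentromeric, 48 lay within 1 kb of the end of a protein-coding gene, 18 were subtelomeric, 18 lay within 1 kb of a U1, U2 or U3 RNA gene, 8 lay within 1 kb of a nuclear copy of a mitochondrial gene and 30 lay elsewhere. Each site was given 1 of these classes, which were drawn up after the values were seen. Sequence could be read at the gene starts only. For 34 sites the RefSeq promoter table (GRCh38.p14, 250 bases before to 50 after a start) had a window over a high-scoring summit.

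In 26 of these 34 sites the window held CGCGAGA or its reverse complement (76.5%, 95% exact interval 58.8 to 89.3%), which, preceded by TCT, forms a palindrome known as the CGCG element and as a target of the nuclear protein BANP. All 34789 windows of the table held it in 3.47%, and the 1213 windows with lower-scoring summits only in 18.6%. The 10 stretches here come from the best-scoring of those sites in which the match nearest to the highest summit, with 20 bases on each side, lay before the start. They are shown because most of the 34 sites had this sequence. It was chosen after the sequences were seen, so its share of these sites is a description only. All 26 sites with it were high in replicate 1 or 2, and 0 of the 5 sites high in replicate 3 had it. Capitals mark every whole match to the 7 letters on either strand, and each line reads 5′ to 3′ on the gene's strand.
MRPL57, chr13:21176581-21176630, plus strand: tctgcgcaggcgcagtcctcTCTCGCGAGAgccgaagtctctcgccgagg
ERCC6L2, chr9:95875614-95875660, plus strand: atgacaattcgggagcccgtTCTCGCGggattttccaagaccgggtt
CDK12, chr17:39461408-39461454, plus strand: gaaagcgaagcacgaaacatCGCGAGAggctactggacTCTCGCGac
PSMD5, chr9:120843008-120843054, minus strand: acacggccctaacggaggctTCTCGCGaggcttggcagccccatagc
NANP, chr20:25624101-25624147, minus strand: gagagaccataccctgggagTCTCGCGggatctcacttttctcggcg
SLC25A11, chr17:4940239-4940285, minus strand: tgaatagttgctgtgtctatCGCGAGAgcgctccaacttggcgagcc
FAM200B, chr4:15681604-15681650, plus strand: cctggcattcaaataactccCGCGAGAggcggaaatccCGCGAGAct
ARF3, chr12:48957545-48957594, minus strand: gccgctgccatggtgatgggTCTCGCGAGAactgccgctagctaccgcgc
RPS19, chr19:41860167-41860213, plus strand: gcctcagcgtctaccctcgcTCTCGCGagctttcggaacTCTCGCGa
BTBD10, chr11:13463254-13463300, minus strand: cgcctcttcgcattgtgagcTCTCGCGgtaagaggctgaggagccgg

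The SKA3 start carried the second-highest score at a coding gene end, and its 250 upstream bases hold the element more than once. The 250 bases before MTF2 come from the only window of the 34 with a match to AACAAAG. Capitals in the SKA3 line mark the CGCG element, and capitals in the MTF2 line mark AACAAAG read on the other strand.
SKA3, chr13:21176553-21176802, minus strand: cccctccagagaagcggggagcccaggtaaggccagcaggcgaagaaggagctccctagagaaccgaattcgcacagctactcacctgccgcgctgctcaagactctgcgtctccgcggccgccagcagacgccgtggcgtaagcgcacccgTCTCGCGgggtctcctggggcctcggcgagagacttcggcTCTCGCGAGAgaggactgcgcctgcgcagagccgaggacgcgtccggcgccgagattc
MTF2, chr1:93079033-93079282, plus strand: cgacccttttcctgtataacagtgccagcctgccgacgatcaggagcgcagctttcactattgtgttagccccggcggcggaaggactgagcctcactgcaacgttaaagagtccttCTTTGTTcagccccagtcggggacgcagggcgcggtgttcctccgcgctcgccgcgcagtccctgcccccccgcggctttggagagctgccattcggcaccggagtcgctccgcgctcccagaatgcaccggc

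The high-scoring summits were found again in other libraries more often than the other summits of the same lists. A summit of another library lay within 200 bp of 95.9% of the high-scoring summits of replicate 1 (95% exact interval 90.8 to 98.7%), 97.1% in replicate 2 (91.9 to 99.4%) and 87.1% in replicate 3 (78.0 to 93.4%). Among all other summits the shares were 44.9%, 36.7% and 15.3%. The mean difference was 61.1 ± 10.4 percentage points (SD, n = 3 libraries), and it was positive in 3 of 3. The exact sign-flip permutation test over libraries gave a two-sided p of 0.25, which is the smallest that 3 libraries allow and the value of each of the next 4 comparisons as well. In pairs, 93.5% of the high-scoring summits of replicate 1 were found in replicate 2 and 69.1% in replicate 3. For replicate 2 the shares were 91.4% in replicate 1 and 75.2% in replicate 3, and for replicate 3 they were 77.6% in replicate 1 and 74.1% in replicate 2.

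**Figure D1:**
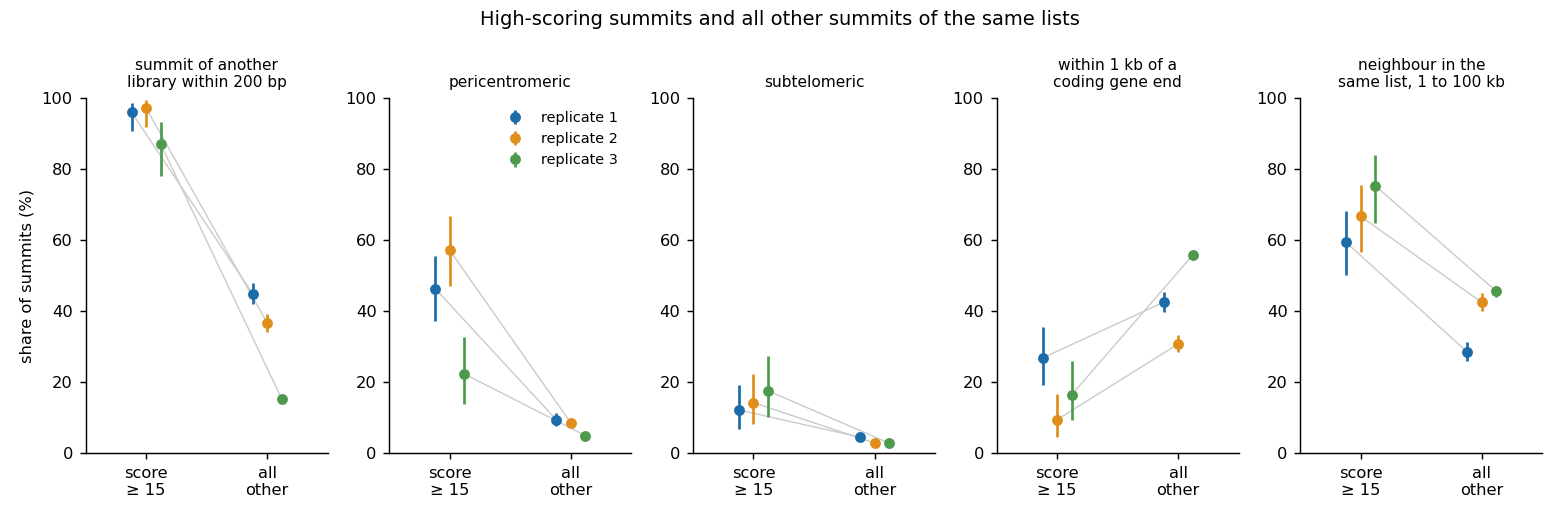
Share of high-scoring summits (left in each panel) and of all other summits of the same list (right), in percent, for 5 measures that the score rule did not use; points are libraries, bars exact 95% intervals and grey lines join the values of 1 library. In every panel the 3 libraries moved the same way: the share near coding gene ends was lower among high-scoring summits and the other 4 shares were higher.

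Position within the chromosome differed as well, each time by more than the SD over the libraries. Pericentromeric here means inside the longest stretch without any RefSeq gene near the centromere, or within 2 Mb of it. This held for 46.3% of the high-scoring summits of replicate 1 (37.3 to 55.6%), 57.1% of replicate 2 (47.1 to 66.8%) and 22.4% of replicate 3 (14.03 to 32.7%), against 9.44%, 8.55% and 5.01% of the other summits (mean difference 34.3 ± 15.8 points). Within 1 Mb of a chromosome end lay 12.2%, 14.3% and 17.6% of the high-scoring summits of replicates 1 to 3, against 4.59%, 2.92% and 2.87% of the others (11.2 ± 3.59 points). Of the 15 such high-scoring summits in each list, 3, 4 and 3 lay in the cluster of mitochondrial gene copies at chr1:629664-634163. Ends of coding genes went the other way, with lower shares among high-scoring summits. At most 1 kb from one were 26.8% (19.2 to 35.6%), 9.52% (4.66 to 16.8%) and 16.5% (9.31 to 26.1%) of the high-scoring summits, against 42.5%, 30.8% and 55.8% of the others (−25.4 ± 12.3 points). A neighbour of the same list over 1 kb and at most 100 kb away, whatever its score, was present for 59.3%, 66.7% and 75.3%, against 28.5%, 42.5% and 45.6% (28.3 ± 3.56 points). Chromosome 8 is dense in summits in all 3 lists, and without it the last difference was 36.01 points.

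The scores of the members ran from the threshold to 160 in replicate 1, 179 in replicate 2 and 111 in replicate 3, with medians of 22.4, 25.9 and 22.3. These values chose the members and carry no test. The lowest member scored 15.1, 15.01 and 15.2 in replicates 1 to 3, and the highest summit left out 14.97, 14.99 and 14.98. Between 14 and 15 lay 14, 6 and 17 summits, and between 15 and 16 lay 13, 11 and 9, so no gap separates the members from the rest. The make-up changed further up the scale. Of summits at 30 or more, 73.7%, 68.9% and 35.0% were pericentromeric in replicates 1 to 3, and 5.26%, 2.22% and 0% had a coding gene end within 1 kb. The last of these shares is 0 of 20 summits.

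Many sites were high in only some of the libraries. A score of at least 15 was reached in all 3 libraries at 34 sites, in 2 at 51 and in 1 at 109. A summit of any score was present in all 3 libraries at 110 sites (56.7%), in 2 at 65 and in 1 at 19. Replicates 1 and 2 together, without replicate 3, scored high at 42 sites, whereas replicate 3 shared its high score with replicate 1 alone at 2 and with replicate 2 alone at 7. Most sites high in a single library were present in another at a lower score. That was so for 40 of 45 sites high in replicate 1 alone, where the median score was 9.55 in replicate 2 and 6.42 in replicate 3. It was so for 19 of 22 sites of replicate 2 and 31 of 42 of replicate 3, the last with medians of 7.76 in replicate 1 and 5.74 in replicate 2. Over sites present in both, the Spearman correlation of the scores was 0.70 between replicates 1 and 2 (151 sites), 0.079 between replicates 1 and 3 (122 sites) and 0.29 between replicates 2 and 3 (122 sites). These describe sites that share their libraries and were chosen for a high score in at least 1 of them.

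**Figure D2:**
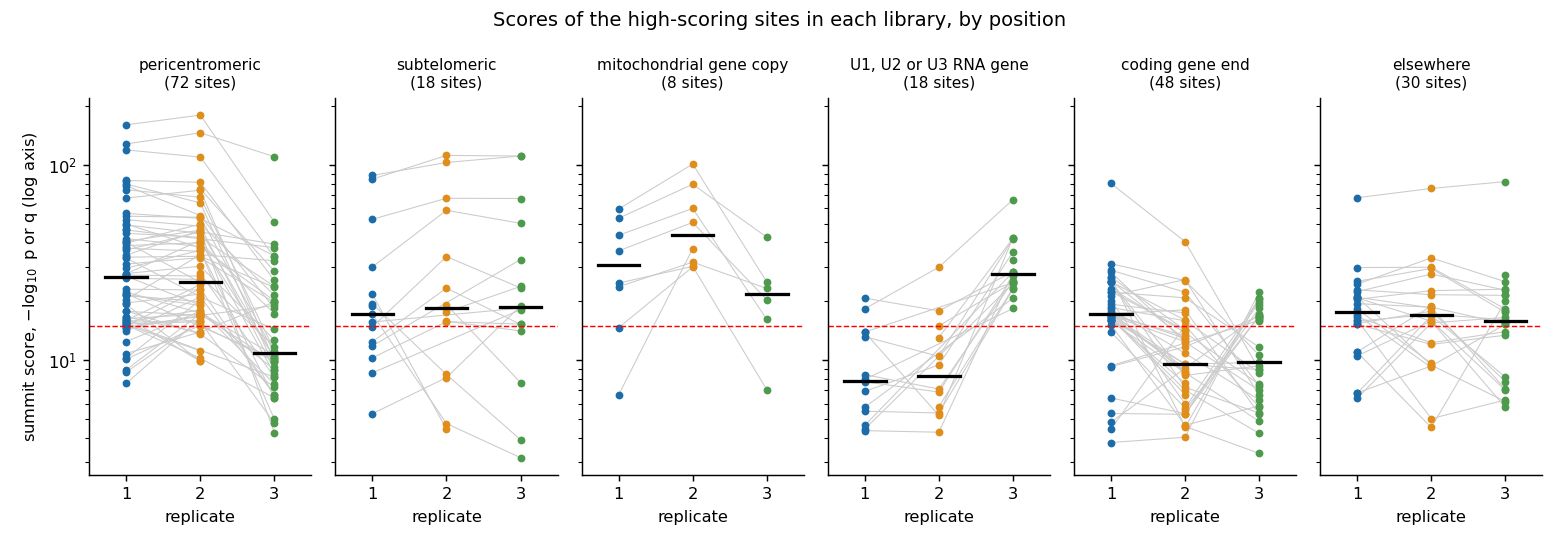
Summit score (log axis) of each of the 194 sites in replicates 1, 2 and 3, in 6 panels by position; grey lines join a site's values, black bars are medians over the sites with a summit in that library, and the red dashed line is the threshold of 15. Pericentromeric sites were high in replicates 1 and 2, U1, U2 and U3 sites in replicate 3, and coding gene ends mostly in replicate 1.

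The 72 pericentromeric sites lay on 13 chromosomes, with 30 of them on chromosome 1. Inside the gene-free stretch itself were 60 sites, and 69 overlapped no RefSeq gene. Their median distance to a coding gene end was 678 kb. The score was at least 15 at 55 of them in replicate 1, 59 in replicate 2 and 18 in replicate 3. The median over sites with a summit was 26.6, 25.01 and 10.9 in replicates 1 to 3. The library with the highest score was replicate 1 at 35 sites, replicate 2 at 35 and replicate 3 at 2. These sites were chosen for a high score in at least 1 library, so this order is a description only. The summits of different libraries lay close together there, with a median offset of 15 bp between replicates 1 and 2 and 31 bp between replicates 1 and 3. The Spearman correlation of scores between replicates 1 and 2 was 0.868 over 61 sites.

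Clusters gathered 95 of the 194 sites (48.97%) into 23 groups whose members lay within 100 kb of a neighbour, and 99 sites stood alone. The largest, chr1:143185197-143274101, held 25 sites in 88.9 kb with a median gap of 2.39 kb. Replicate 1 scored at least 15 at 21 of them, replicate 2 at 24 and replicate 3 at 5. The highest scores in replicates 1 to 3 were 119, 109 and 33.7. The nearest coding gene, the histone H3 gene H3-7, was 628 kb away. On chromosome 5, chr5:49600691-49666438 held 8 sites, of which 5, 6 and 3 were high in replicates 1 to 3, at 730 kb from EMB, a cell-surface immunoglobulin-family gene. A cluster of 5 at chr1:125075323-125182666 reached 82.4 in replicate 1, 75.1 in replicate 2 and 28.5 in replicate 3.

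Among smaller pericentromeric clusters the order of the libraries varied. The 3 sites at chr16:46388884-46400883 held the highest scores in replicates 1 and 2, 160 and 179, against 50.98 in replicate 3. The 4 sites at chr16:34583163-34610373 reached 74.5, 68.2 and 11.2 in replicates 1 to 3, so replicate 3 had none at the threshold. On chromosome 10, chr10:41845935-41879444 held 4 sites, the highest at 36.6, 45.3 and 39.2, and the 3 sites of chr10:42067445-42103860 had no summit of replicate 3 within 200 bp. The single site with the best worst score, chr3:93470597-93470602, belonged to no cluster and scored 128, 146 and 110, so replicate 3 was not low at every pericentromeric site.

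**Figure D3:**
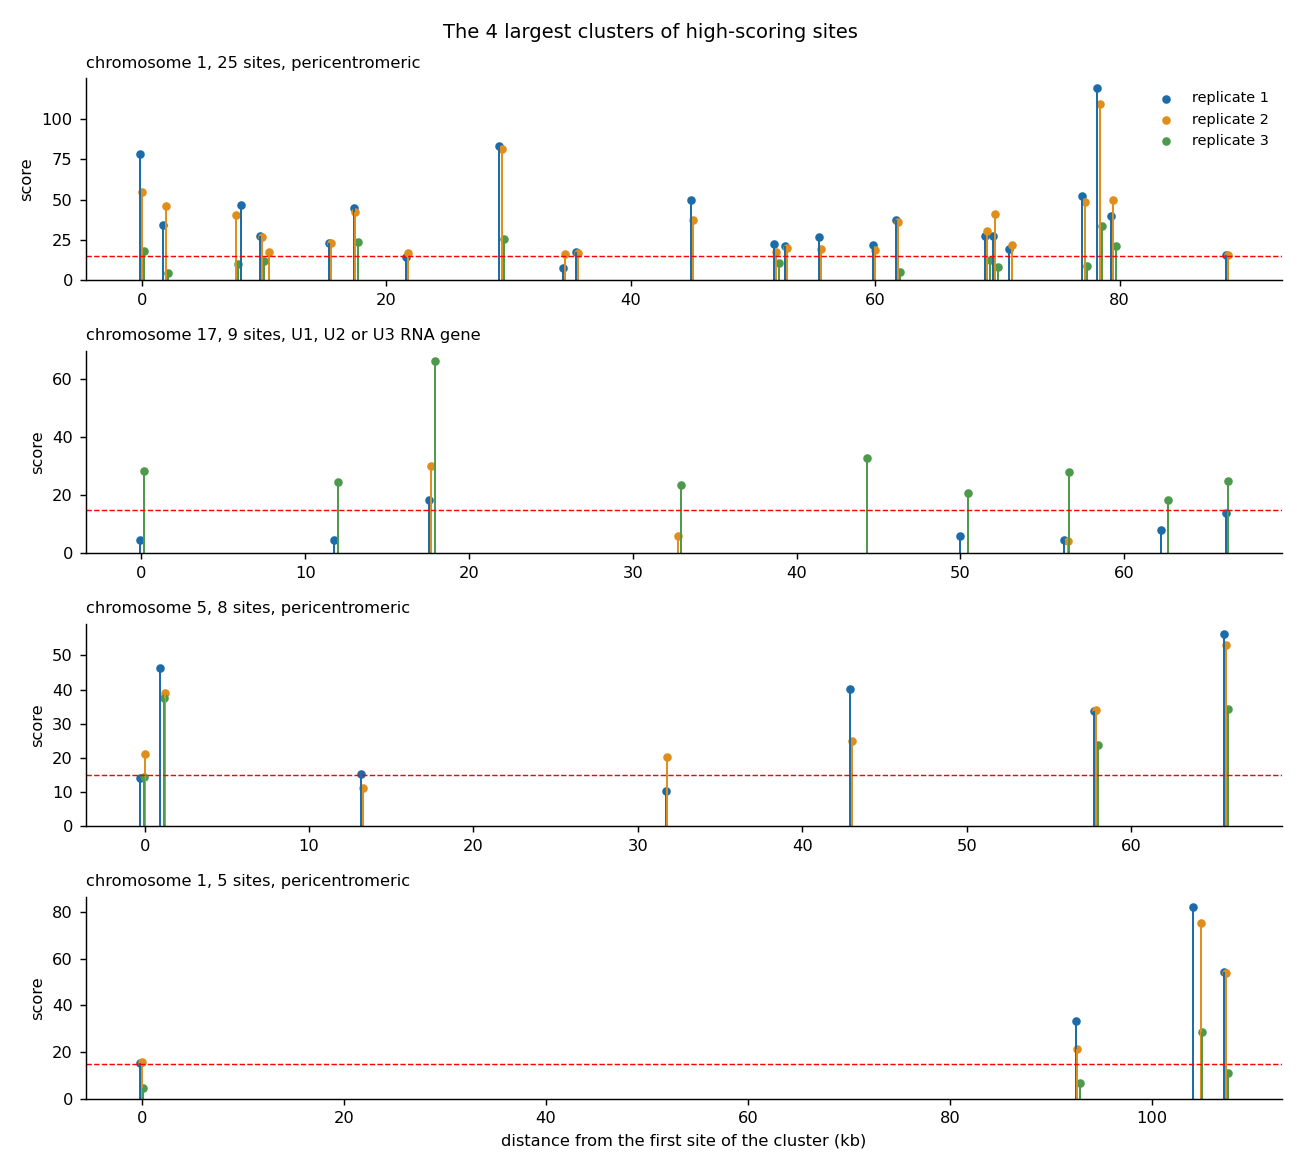
Scores of the sites in the 4 largest clusters, plotted against the distance from the first site of the cluster in kb; colours are libraries, which are drawn slightly apart sideways, and the red dashed line is the threshold of 15. The clusters on chromosomes 1 and 5 were led by replicates 1 and 2, and all 9 sites of the chromosome 17 cluster by replicate 3.

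The second-largest cluster was of another kind. At chr17:43234013-43300222, 9 sites lay on the tandem array of genes for U2, the spliceosomal RNA that pairs with the branch point of introns. Their median spacing was 6.17 kb. The 8 spacings ran from 3.64 to 15.1 kb, and 3 of them lay between 5.9 and 6.3 kb. The table lists 13 small nuclear RNA genes there, RNU2-1 and 12 with locus names only, and 9 of them had a site within 50 bp. All 9 sites were high in replicate 3, where they reached 66.3, against 1 each in replicates 1 and 2. At RNU2-1 the score was 28.2 in replicate 3 and 4.64 in replicate 1, with no summit of replicate 2 within 200 bp.

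U1 is the spliceosomal RNA that pairs with the 5′ splice site. Of 136 U1 genes and pseudogenes, 6 (4.41%) had a site within 5 kb, against 0.350% of genes of every type. All of these sites were high in replicate 3 alone. RNU1-1, RNU1-2, RNU1-3 and RNU1-4 on chromosome 1 each had a site within 82 bp. RNU1-4 scored 13.9, 5.22 and 42.3 in replicates 1 to 3, RNU1-2 scored 13.2, 10.5 and 41.8, and RNU1-1 scored 6.92, 9.46 and 35.8. RNU1-3 scored 13.1 in replicate 2 and 42.1 in replicate 3 and had no summit in replicate 1. The annotated pseudogenes RNU1-27P and RNU1-28P on chromosome 14 stood at 25.4 and 23.05 in replicate 3 and below 9 in both other libraries.

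U3, a small nucleolar RNA of ribosomal RNA processing, is encoded by the SNORD3 genes of chromosome 17, and all 5 of 5 had a site within 5 kb. Only 3 sites lie behind this count, because SNORD3B-1 and SNORD3B-2 share a site, as do SNORD3A and SNORD3C. SNORD3D scored 20.8, 17.9 and 28.4 in replicates 1 to 3, and SNORD3A 7.76, 6.87 and 26.9. Over all 18 U1, U2 and U3 sites the median score was 7.87, 8.29 and 27.5 in replicates 1 to 3, with replicate 3 the highest at each. All 18 reached the threshold in replicate 3 and only 2 each in replicates 1 and 2, so the selection itself largely sets this order and it is a description only. The authors' read placement among near-identical copies is not given in the sources used here, so the copy a summit belongs to is uncertain. Other multicopy RNA genes were rarer. Of 497 transfer RNA genes 1 had a site within 5 kb, and of 549 ribosomal RNA genes and pseudogenes 1 did, against 0.350% of the 59098 genes of every type.

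Nuclear copies of mitochondrial genes were highest in replicate 2, in 8 of 8 sites, with medians of 30.5, 43.9 and 21.8 in replicates 1 to 3. The replicate 3 median covers the 6 sites with a summit there. All 8 reached the threshold in replicate 2, 6 in replicate 1 and 5 in replicate 3. The selection thus bears on this order, which is a description only. Within 5 kb of a site lay 15 of 479 such copies (3.13%), against 0.350% of genes of every type. Neighbouring copies share sites, so they do not count separately. The cluster at chr1:629664-634163 held 4 sites over MTND2P28, MTCO1P12 and MTATP6P1, copies of genes for respiratory-chain and ATP synthase subunits. The MTRNR2L genes derive from the mitochondrial 16S ribosomal RNA gene. The site beside MTRNR2L8 on chromosome 11 scored 59.3, 100.7 and 25.2. That beside MTRNR2L2 on chromosome 5 scored 24.8, 30.2 and 7.06. That in MTRNR2L12 on chromosome 3 scored 6.63 and 37.2 in replicates 1 and 2 with no summit in replicate 3. Mitochondrial DNA itself held 7, 10 and 10 summits at or above 15 in the 3 lists, and how far reads are shared with it was not tested.

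Subtelomeric sites had like medians in the 3 libraries. By position alone 25 sites were subtelomeric, and the 18 in no earlier class had medians of 17.2, 18.4 and 18.7. The site in DUX4, a homeobox gene inside the D4Z4 repeats of chromosome 4, scored 84.3, 112 and 111, and the site at chr18:108254-108258 scored 88.1, 103 and 111. FRG1 and FRG2 lie beside these repeats on chromosome 4. The 3 sites at chr10:133688476-133763542 reached 52.6, 67.3 and 67.1. Their nearest coding gene, FRG2B, was 61.7 kb away or more, and the pseudogenes DUX4L20 and DUX4L15 lay closer, at 2407 to 4388 bp. The site 1.84 kb from FRG2 scored 11.8 in replicate 1 and 32.7 in replicate 3. Anywhere in the genome, 4 of 24 genes with FRG symbols (16.7%) and 5 of 47 DUX4 genes and pseudogenes (10.6%) had a site within 5 kb, against 0.350% of genes of every type. The FRG count includes the non-coding FRG1-DT and the pseudogene FRG1HP. FRG2C and DUX4L26 share a site, as do FRG2 and DUX4L9, so these genes do not count separately. The sites at DUX4L26 on chromosome 3 and FRG1HP on chromosome 9 are not subtelomeric. Of other families of chromosome ends, 1 of 16 WASH genes, 1 of 8 DDX11L genes and 0 of 17 OR4F olfactory receptor genes did.

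Ends of coding genes were high mostly in replicate 1, and at some other genes in replicate 3. Of 19974 coding genes, 58 (0.29%) had a high-scoring site within 1 kb of an end. The 48 sites had a median distance of 73.5 bp to that end and 28 lay within 100 bp. None scored 15 in all 3 libraries: 24 were high in replicate 1 alone, 9 in replicates 1 and 2, 1 in replicate 2 alone and 14 in replicate 3 alone. Replicate 1 had the highest score at 31, replicate 2 at 3 and replicate 3 at 14. Over all 194 sites these counts were 80, 63 and 51. Sites entered through a high score in at least 1 library, most of these in 1 library alone. The selection itself thus largely sets this order, which is a description only. The highest site was at RBM39, a splicing factor gene, with scores of 80.2, 40.4 and 8.97 in replicates 1 to 3.

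The genes with higher scores in replicates 1 and 2 had varied roles, which were not tested as groups. SKA3, a kinetochore subunit gene that shares its start region with the mitochondrial ribosomal gene MRPL57, scored 31.2, 25.6 and 10.6. ERCC6L2, a DNA repair helicase gene, scored 28.8, 22.3 and 7.42, and SPDL1, a gene for a protein that brings dynein to kinetochores, scored 17.1, 9.51 and 8.95. DENR, a factor of translation reinitiation, scored 21.4, 25.8 and 6.63. PUF60, a splicing factor gene, scored 28.2, 12.4 and 7.01. PSMD5, an assembly chaperone of the proteasome, scored 26.5, 4.58 and 3.34. CDK12, a kinase of RNA polymerase II, scored 26.6 and 14.2 in replicates 1 and 2, and RPS19, a small-subunit ribosomal protein gene, 22.4 and 14.2, both with no summit in replicate 3. MTF2, a partner of Polycomb repressive complex 2, scored 22.3, 20.9 and 11.7. ASH2L, of the histone H3 lysine methyltransferase complexes, scored 19.3 and 17.5 with none in replicate 3.

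The 14 sites high in replicate 3 alone were at genes of varied roles too, but many lay on chromosome 8, which is dense in summits. These were at ENTPD4, MAK16, RPS20, NBN, PABPC1, ZNF706 and SCRIB. In all, 10 of the 48 coding gene end sites were on chromosome 8, the rest of them at ASH2L, PCMTD1 and PUF60, high in replicate 1. Of all 194 sites 16 lay on this chromosome, and of the 313 high-scoring summits 24. These counts were not set against the share of all summits or of all coding genes there, so they are a description only. RPS20, a small-subunit ribosomal protein gene, scored 5.59 in replicate 2 and 16.8 in replicate 3, and PABPC1, a poly(A)-binding protein gene, 16.5 in replicate 3 with no summit in the others. SECISBP2, needed for selenoprotein synthesis, scored 3.79, 4.04 and 22.3 in replicates 1 to 3. The histone H4 gene H4C12 scored 5.34, 5.29 and 19.95, and H4C11 scored 4.54 in replicate 2 and 20.7 in replicate 3. SCRIB, a cell polarity gene, scored 13.9, 5.71 and 20.6, and NBN, of the complex that senses DNA breaks, 6.40, 5.34 and 18.5. FLOT1, a membrane raft gene, had 19.1 in replicate 3 and no summit within 200 bp in the others, although replicate 2 had one 299 bp away with a score of 6.49. Over coding gene ends with summits in both lists, the Spearman correlation was 0.54 between replicates 1 and 2 (38 sites) and −0.41 between replicates 1 and 3 (26 sites), again over sites chosen for a high score in at least 1 list.

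The sequence element was in the windows of 26 of the 29 sites that scored high in replicate 1, of 6 of the 9 in replicate 2 and of 0 of the 5 in replicate 3. Of those 5, only 2 were coding gene ends, FLOT1 and KRABD2, so the other 12 coding sites high in replicate 3 alone had no window over a high-scoring summit and are not described by this count. The full palindrome of 10 letters was in 13 of 34 (38.2%), against 0.414% of all windows. Windows with lower-scoring summits only held the 7 letters in 18.6% (1213 windows) and windows with no summit in 2.81% (33526 windows). Genes of chromosome 8 were not analysed here for sequence. The search covered both strands, the 7 letters are part of the 10, and the element was chosen after the sequences were seen.

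By summit, 25 of 28 high-scoring summits in a window lay over one with the element in replicate 1 (89.3%, 95% exact interval 71.8 to 97.7%), against 44.8% of 241 others. In replicate 2 the shares were 6 of 9 (66.7%, 29.9 to 92.5%) and 36.5% of 211 others, and in replicate 3 they were 0 of 5 (exact upper limit 52.2%) and 11.01% of 681 others. The mean difference of 21.2 ± 28.8 points (SD, n = 3 libraries) was smaller than its spread, with opposite signs in replicates 1 and 2 and in replicate 3 (exact sign-flip permutation test, two-sided p = 0.5). In replicate 1 the share was 25.6% below a score of 5, 45.2% from 5 to 8, 71.4% from 8 to 10 and 82.6% from 10 to 15. In replicate 3 it was between 10.3% and 16% in those 4 ranges.

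**Figure D4:**
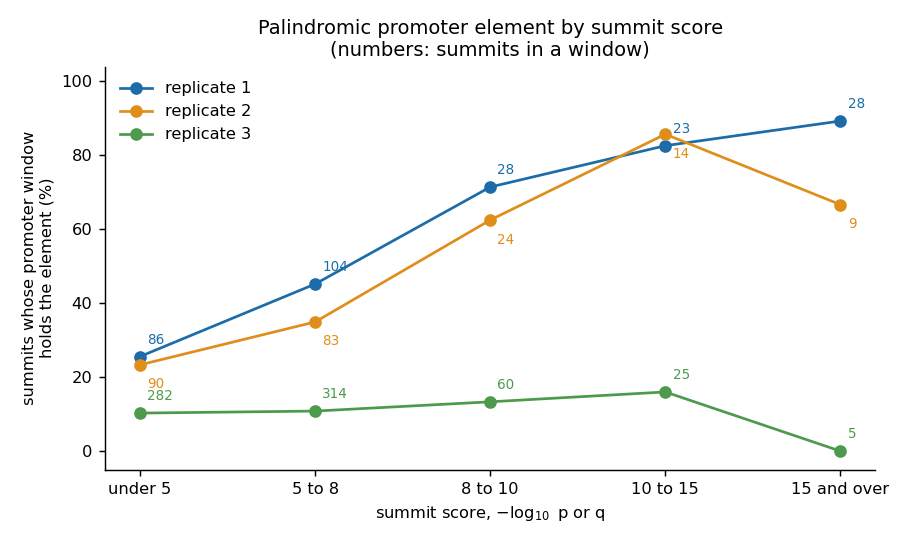
Share of summits in a RefSeq promoter window whose window holds the 7-letter palindromic element (percent), by score range and library; the number beside a point is the number of summits. The share was higher at higher scores in replicates 1 and 2 up to 15, and stayed at or below 16% in replicate 3.

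In replicates 1 and 2 most summits lay on or beside the element. Over the 26 sites, the distance from the summit to the centre of the nearest match had a median of 16 bp in replicate 1 (26 sites) and 19 bp in replicate 2 (26 sites), against 120 bp in replicate 3 (14 sites). Within 50 bp were 23, 18 and 3 of them. Each of the 26 sites was high in replicate 1 or 2 and none in replicate 3, whose summits had only to lie within 200 bp, so these distances were not chosen alike and are given as a description. The SOX sequence AACAAAG was in 1 of the 34 windows (2.94%), against 5.20% of all windows, and AACAATG in 0 of 34, against 3.32%. Windows with lower-scoring summits only held AACAAAG in 3.05% and AACAATG in 1.32%. Of the other sequences searched, CCGGAAG, of ETS factors, was in 6 of 34 (17.6%) against 10.2% of all windows. CACGTG, an E-box, was in 4 (11.8%) against 7.24%, and CCAAT in 5 (14.7%) against 34.6%. GCATGCG, of NRF1, was in 4 (11.8%) against 3.87%. Windows with lower-scoring summits only held these, in the same order, in 23.2%, 11.4%, 23.7% and 6.76%. The NRF1 letters are a shortened form, taken up after a longer one had been searched and seen in fewer of the windows. A match is a run of letters and not a measured binding site, and its lack says only that these letters are not in the window. BANP itself had a site, 53 bp past its start in replicate 1 (score 18.3) and 65 bp past it in replicate 2 (9.64). It was named after its values were seen.

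Summits of replicate 3 had more downstream medians at gene starts. At the 40 sites within 500 bp of a listed coding gene start, the median summit lay 46 bp upstream in replicate 1 (−46.0 bp) and a little less in replicate 2 (−32.5 bp), whereas in replicate 3 it lay 69 bp downstream (69.0 bp, 26 sites). The last value depends on how the sites entered. At the 31 sites high in replicate 1 or 2 the replicate 3 median was 31.0 bp, with 9 of 17 summits downstream, and at the 9 sites high in replicate 3 alone it was 70.0 bp, with 7 of 9 downstream. At the 19 sites with summits in all 3 libraries the medians were −44.0, −51.0 and 68.0 bp, and replicate 3 had the most downstream summit at 12 of 19. RICTOR, a subunit gene of the growth kinase complex mTORC2, had summits at −40.0, −105.0 and 151.0 bp, and MAPK14, which encodes p38 alpha, at −74.0, −114.0 and 72.0 bp. SKA3 went the other way, with −36.0, −58.0 and −212.0 bp. It shares its start region with MRPL57 on the opposite strand. Each site was measured from its nearest listed start only, so at such shared starts the sign can depend on the gene taken. All other summits within 500 bp of a start had medians of 4.0, 5.0 and 116.0 bp, so replicate 3 also had the most downstream median of the 3 lists outside the high-scoring set.

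**Figure D5:**
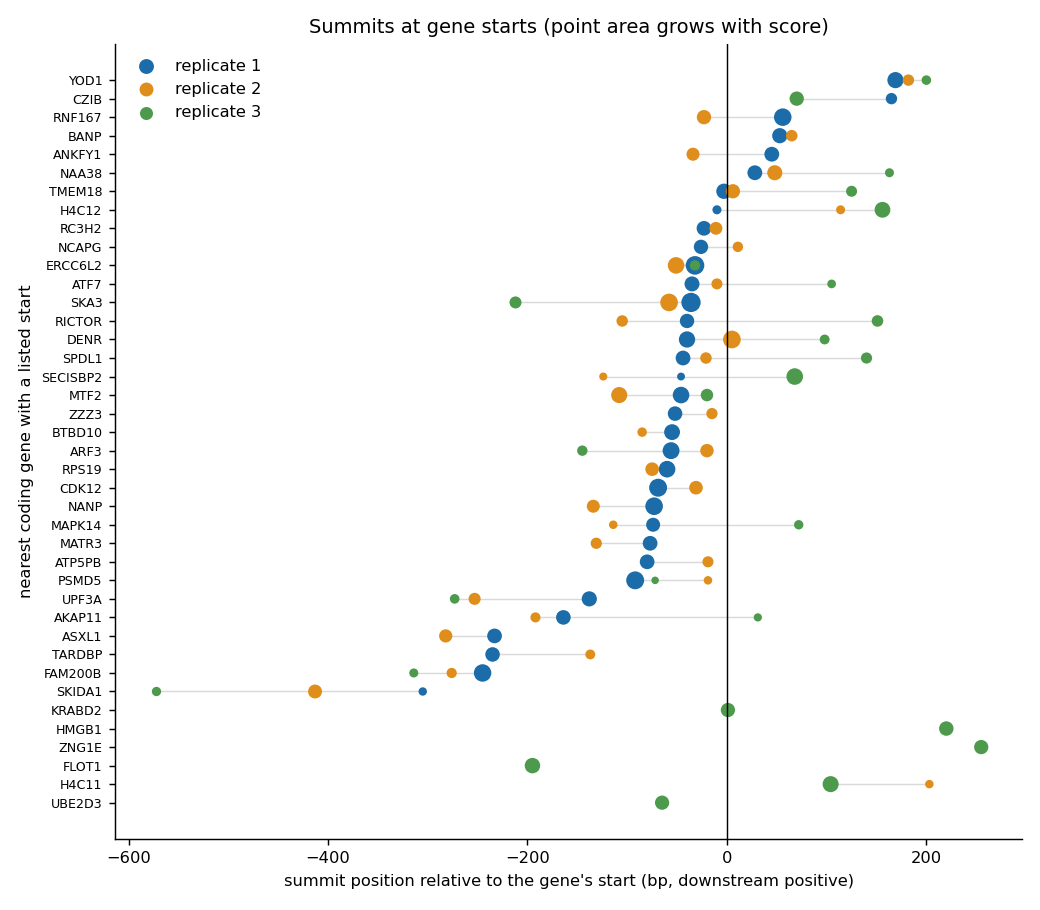
Position of each summit relative to the start of its gene (bp, negative upstream) at the 40 sites near a listed coding start; colours are libraries, point area grows with score and grey lines join 1 site. Replicates 1 and 2 lay mostly just upstream, with medians of −46.0 and −32.5 bp, and replicate 3 mostly downstream, with a median of 69.0 bp.

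The 30 sites elsewhere scored 17.7, 17.04 and 15.8 in the median in replicates 1 to 3. The highest was at chr1:236097210-236097228, 32.1 kb from NID1, a basement membrane gene, with 67.8, 75.6 and 81.9. Sites inside long genes included CACNA1C, a calcium channel gene, at 24.5, 33.4 and 25.2, and COL23A1, a transmembrane collagen gene, at 25.3, 29.5 and 17.6. MALAT1, an abundant nuclear long non-coding RNA gene, scored 20.8, 15.8 and 5.73. The 20 sites with the best worst score over the libraries were 9 pericentromeric, 4 subtelomeric, 3 at mitochondrial copies and 4 elsewhere, and 0 had a coding gene end within 1 kb.

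Only 19 sites had no summit of another library within 200 bp, and several of those missed by little. The highest, chr1:125179586 in replicate 1 at 82.4, had a summit of replicate 2 at 560 bp (75.1) and of replicate 3 at 475 bp (28.5). The highest of replicate 2, chr5:49601959 at 39.1, lay 205 bp from a replicate 1 summit (46.4) and 203 bp from a replicate 3 summit (37.6). The highest of replicate 3, chr17:43278156 at 32.7 in the U2 array, lay 274 bp from a replicate 1 summit (6.33).

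The 8 genes that the series design names for SOX4 sites had none of these summits close by. The nearest high-scoring site lay 379 kb from ISG15, 526 kb from HLA-C and 611 kb from HLA-B, between 2.08 and 2.11 Mb from TAP2, TAP1 and PSMB9, 9.89 Mb from IRF7 and 70.2 Mb from IFIH1. It lay 6.23 Mb from the SOX4 gene itself. Lower-scoring summits are not part of these distances, and the 8 genes were picked by the study from these same libraries.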

How the data were processed

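Each library was deposited as a list of summits of 1 bp, called per library by the authors. The deposited score is on a −log10 scale, of p or of q (which is not given in the sources used here). It is the authors' own and served to choose and rank summits inside each list. Scores of different libraries were also set side by side as deposited, without adjustment for depth, which is unknown. Which library scored highest at a site is therefore a description only. BWA, SAMtools and MACS2 were used, per the submitters' processing notes, with no versions given. Those notes name hg19, but the highest positions on chromosomes 17, 20 and X (83247361, 64088674 and 156030493) fit GRCh38, the build used here. Genes and promoter windows came from RefSeq tables of GRCh38.p14. No genome, repeat annotation or peak width was used here.

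The members and lists were chosen with earlier results of these data known. Member summits within 200 bp were joined into sites, and sites within 100 kb into clusters. A site's score in a library is that of its summit within 200 bp, whatever its score. Pericentromeric means in the longest gene-free stretch within 5 Mb of the approximate centromere, or within 2 Mb of it. Subtelomeric means within 1 Mb of base 1 or of the last gene end. Classes were assigned in the order mitochondrial copy, U1, U2 or U3 gene, coding gene end, pericentromeric, subtelomeric, elsewhere. A few sites classed as elsewhere lie at a start of the promoter table over 1 kb from the gene table's end. Shares of high-scoring and other summits were compared per library, with a two-sided exact sign-flip permutation test over the 3 libraries. The calculation of the sharing and pericentromeric shares was checked on simulated lists with planted values, whereas the p of the test was not checked. The text names the 20 sites with the best worst score, clusters of 3 or more sites, up to 30 sites at or in coding genes, the 5 highest unshared sites of each library, the listed families and the design genes. Other sites and genes, the motif searches and the distances to starts were chosen after the values were seen. Python 3.11.15, pandas 2.3.3, numpy 2.4.6, scipy 1.17.1 and matplotlib 3.10.9 were used.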

Additional observations from a re-analysis of the deposited data

Results flagged for a closer look

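High scores were also seen in data that the comparisons leave out. Contigs outside the assembled chromosomes held 33 summits at or above 15 in replicate 1, 35 in replicate 2 and 25 in replicate 3. The mitochondrial genome held 7, 10 and 10. Neither was set against a control, because none was analysed here, and no test was made.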

How the results depend on the processing

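The 5 share differences kept their direction under every alternative run: another threshold, the 100 highest summits of each list, no chromosome 8, other distances and gene sets, and leaving out each library. The other settings moved 3 of them by over 1.5 times: coding gene ends ran from −40.03 (threshold 30) to −13.1 points (genes of every type), neighbours from 15.6 (within 250 kb) to 41.9 (threshold 30) and subtelomeric position from 6.48 (within 500 kb) to 17.4 (threshold 30). None could pass 0.05 with 3 libraries. Without 1 replicate they ran from 51.7 to 69.9 points for sharing, 27.1 to 42.7 for pericentromeric position, 9.49 to 13.1 for subtelomeric position, −30.3 to −18.5 for coding gene ends and 26.96 to 30.3 for neighbours. The count of 194 sites was 467, 114 and 58 at thresholds of 10, 20 and 30, and 149 to 172 without 1 replicate. The 23 clusters were 49, 14 and 9 at those thresholds, and 14 to 21 without 1 replicate, the lowest without replicate 3. Thresholds change the counts by their construction. No paired analysis was possible because the 3 libraries form 1 group. Depth is unknown, so a summit missing from a list was only not called there, and whether it was absent was not tested.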
